A study of Mus musculus with 10 samples.

Results

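The acid lipases and arylacetamide deacetylase (AADAC)-like esterases described here are 9 genes, found by name among the 22740 protein-coding gene entries of the table: Lipa, Lipk, Lipm, Lipn, Aadac, Aadacl2, Nceh1, C130079G13Rik and Gm9696. They were chosen by family name, and the chromosome 3 pair C130079G13Rik and Gm9696 was selected on its lower counts in Grhl3 KO in these same 10 libraries. The differences between the groups therefore describe these genes and carry no test of their own. RNA was sequenced from the oesophagus of C57BL/6 mice, all exposed to 4-NQO (4-nitroquinoline 1-oxide, a carcinogen that induces squamous tumours of the upper digestive tract): 5 mice labelled Grhl3 knockout (Grhl3 KO), with tissue labelled oesophageal tumour, and 5 labelled wild type, with tissue labelled only oesophageal. The series title speaks of a conditional knockout and the Grhl3 KO columns carry "L2Cre", whose meaning is not stated; the promoter that drives a Cre, and the age and sex of the mice, are not given either. The design text speaks of tumours for both groups; if the tissue labels differ in fact, genotype and tissue cannot be told apart. Each library is named by its group and sample number.

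Lipases and esterases of these families cut ester bonds with a catalytic serine and release fatty acids from cholesteryl esters, glycerides or smaller acylated compounds. Lipa encodes lysosomal acid lipase, which breaks down the cholesteryl esters and triglycerides of lipoproteins taken up by endocytosis. Its relatives Lipk, Lipm and Lipn are known in human skin from the last living layers of the epidermis, where lipids are remodelled as the barrier forms, and LIPN mutation causes a human ichthyosis. Aadac encodes a microsomal esterase of liver and intestine, and Nceh1 an esterase of the endoplasmic reticulum that acts on cholesteryl esters and ether lipids in macrophages.

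The promoters of C130079G13Rik and Aadacl2 are shown because these chromosome 3 genes are relatives and their windows aligned. Gm9696, more alike to C130079G13Rik in transcript, had no window. With the group means taken out, Pearson's r of the levels of C130079G13Rik and Aadacl2 was 0.59. It was 0.82 between C130079G13Rik and Lipm on chromosome 19. A link between promoter and level was not tested. RefSeq (GRCm38.p6) lists C130079G13Rik as Aadacl2fm1, and 7 of the 9 genes had a window of 300 bases around the start, which ends 50 bases into the transcript. Capitals mark TATAAA, and both sequences run 5′ to 3′ on the plus strand, chr3:59924964-59925263 for C130079G13Rik and chr3:60006493-60006792 for Aadacl2.
C130079G13Rik: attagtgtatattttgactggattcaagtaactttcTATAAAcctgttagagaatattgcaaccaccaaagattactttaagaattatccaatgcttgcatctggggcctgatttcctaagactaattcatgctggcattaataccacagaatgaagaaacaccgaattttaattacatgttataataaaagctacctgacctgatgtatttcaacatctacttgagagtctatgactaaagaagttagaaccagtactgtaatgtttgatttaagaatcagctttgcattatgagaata
Aadacl2: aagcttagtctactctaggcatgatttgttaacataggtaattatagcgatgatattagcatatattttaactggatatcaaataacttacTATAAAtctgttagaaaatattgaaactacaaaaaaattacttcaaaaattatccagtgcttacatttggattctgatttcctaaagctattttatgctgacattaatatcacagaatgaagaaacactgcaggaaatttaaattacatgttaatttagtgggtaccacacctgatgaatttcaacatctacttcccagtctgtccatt
Over 239 aligned bases these windows were 80.3% identical. TATAAA began 214 bases before the start in C130079G13Rik and 159 bases before it in Aadacl2, each on the plus strand.

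The windows were searched on both strands for AACCGGTT, the palindromic grainyhead consensus, and its shorter form ACCGGTT, which lies within it. Neither occurred in any of the 7 windows, against 0.146% and 1.01% of 32817 promoter windows of the same length. TATAAA occurred in 3 of the 7 and in 13.6% of all windows. The 3 were C130079G13Rik and Aadacl2, whose windows aligned, and Lipa, 239 bases before the start on the reverse strand of its window. The windows of C130079G13Rik and Aadacl2 held 32.3% and 29.3% G and C, against a median of 52.7% over all windows. TGANTCA, the AP-1 motif, occurred in Lipn alone, 148 bases before the start (7.81% of all windows). CACGTG, the core bound by lysosomal regulators of the TFEB family, occurred in Nceh1 alone, 26 bases before the start (7.15% of all windows), and not in Lipa. A match or its absence describes these letters in this window.

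The transcripts of the chromosome 3 pair are shown because reads from their most alike stretch may match both. Over 830 bases, all within the 843 coding bases of C130079G13Rik, the pair was 95.8% identical with 35 mismatches, and the longest identical run was 197 bases. The following 90 bases of annotated transcript hold 16 of the 35 mismatches, which are in capitals; in C130079G13Rik they are coding bases at chr3:59936127-59936216, plus strand, and both are from GENCODE M21 on GRCm38.
C130079G13Rik: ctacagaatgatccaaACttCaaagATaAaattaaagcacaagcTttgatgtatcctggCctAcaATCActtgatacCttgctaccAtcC
Gm9696: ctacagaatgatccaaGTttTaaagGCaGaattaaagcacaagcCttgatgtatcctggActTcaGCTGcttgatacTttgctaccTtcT
The shared stretch covered 29.8% of the C130079G13Rik transcript and was aligned to a shorter annotated transcript of Gm9696. The longest Gm9696 transcript, at 3050 bases, is as long as all exonic bases of the gene, so it holds those bases too. Its longest alignment with C130079G13Rik, 1956 bases, was 87.4% identical. The search judged each alignment as a whole, so it did not list the shorter stretch there. For the other 7 genes no alignment to another gene of 75 bases or longer was 95% identical or more. GENCODE M21 and RefSeq class Gm9696 as a transcribed pseudogene, although the deposited table carries it as protein-coding. No source used here says how reads matching both genes were counted, so both counts are uncertain.

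The library totals ran from 15.3 to 32.9 M counts. Values below are counts per M of scaled library size (CPM), with M the SI prefix mega. The targeted gene did not separate the labels: Grhl3 stood at 135 to 317 CPM in libraries labelled Grhl3 KO, against 109 to 363 CPM in wild type. Counts summed over a gene do not show whether part of it was deleted, so every direction given here is between libraries as labelled. The oesophageal squamous epithelium markers summed to 55157 to 71485 CPM in Grhl3 KO mice against 46719 to 116182 CPM in wild type, led by Krt14 and Krt13. Y-linked genes summed to 162 to 203 CPM in Grhl3 KO libraries, to 0.0527 and 0.0539 CPM in wild-type libraries 1528 and 1555, to 72.3 CPM in 1561 and to 154 and 177 CPM in 1028 and 1048. Y-linked levels were thus uneven within the wild-type group, and their sums also differed between the groups (exact two-sided permutation p = 0.0238). As the sex of the mice is not given, sex make-up and label cannot be fully told apart. The sample numbers of 1528, 1555 and 1561 lie far from those of the other 7, in a numbering the labels leave unexplained. In bulk tissue, fewer cells of a type and less RNA per cell cannot be told apart.

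All 9 genes passed the filter on low counts. Gm9696 reached the minimum of 10 counts in 1 of 5 Grhl3 KO libraries and in 5 of 5 wild-type libraries, so it passed through the group where it was higher. In the fit, 6 of the 9 were lower in Grhl3 KO and 3 were higher, and the median log2 fold change (Grhl3 KO minus wild type) was −1.10, against −0.00 over 13731 genes tested. Only the chromosome 3 pair, 2 of the 9, was past the threshold of edgeR's quasi-likelihood test (Benjamini-Hochberg adjusted p under 0.05), both genes lower. Of all genes 0.0801% were past it, 0.0291% higher and 0.051% lower in Grhl3 KO. The pair also made up the 2 of 9 genes whose groups did not overlap, against 1.35% of all genes in either direction and 0.568% lower in Grhl3 KO. Nothing is read from these shares, because the same contrast chose the pair.

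**Figure D1:**
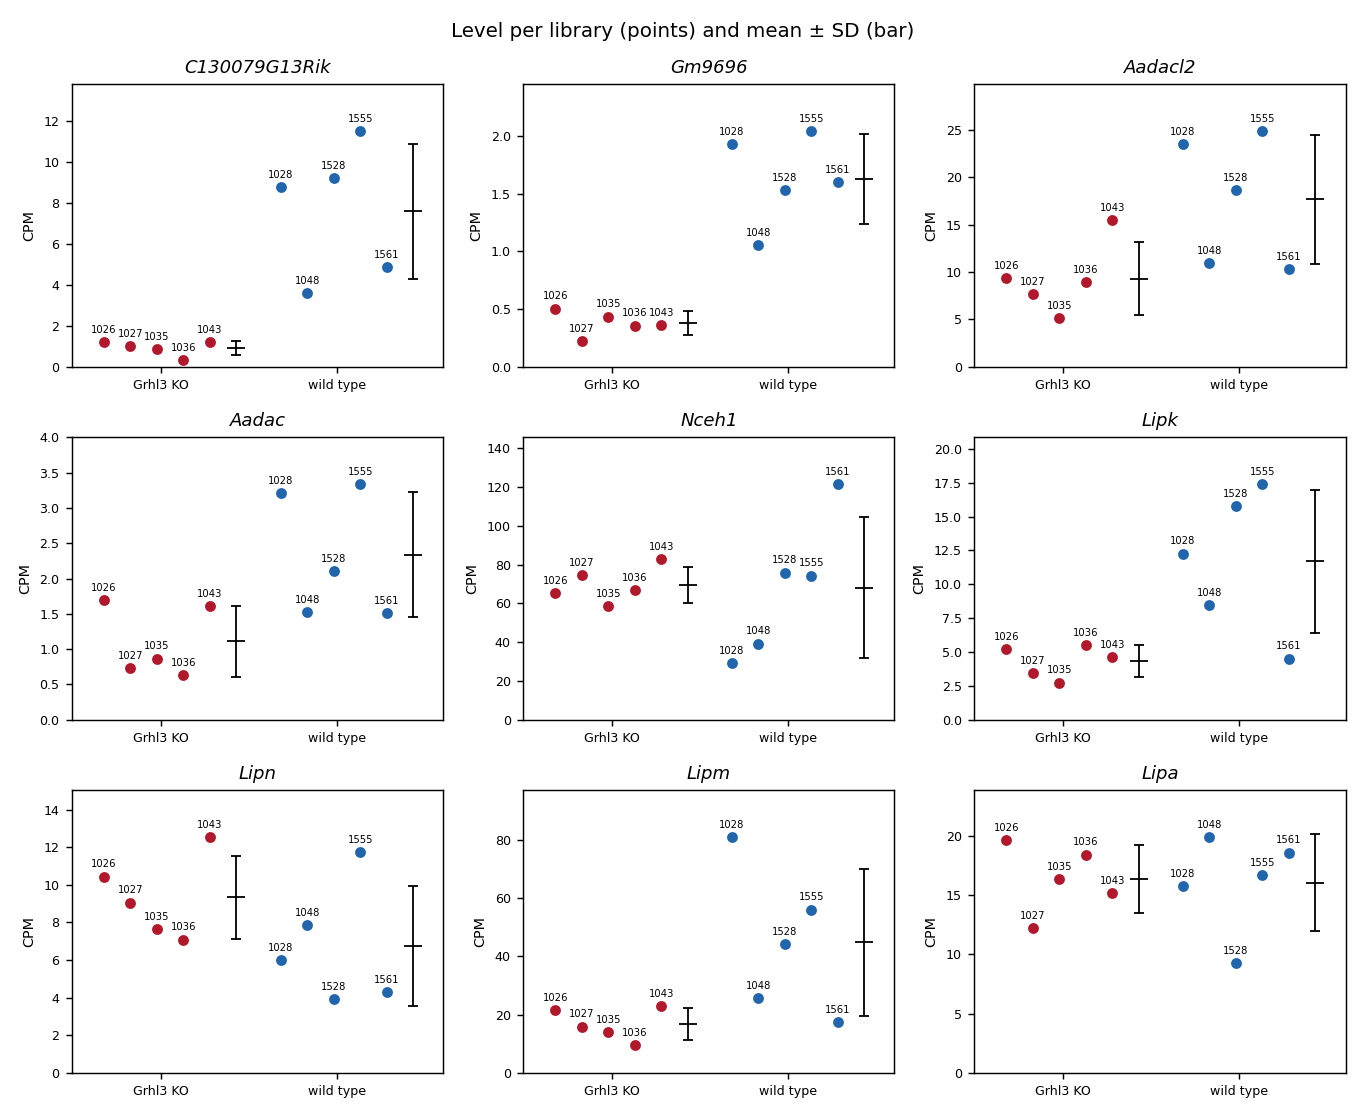
Counts per M of scaled library size (CPM) for each gene, with Grhl3 KO libraries in red at the left and wild-type libraries in blue at the right, labelled by sample number; bars give mean ± SD (n = 5 each). The groups are apart for C130079G13Rik and Gm9696 and overlap for the other 7 genes.

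Each Grhl3 KO library held less C130079G13Rik than any wild-type library. The gene (ENSMUSG00000036951) lies on chromosome 3 from 59925214 to 59937949 (GRCm38, plus strand) and is a predicted member of the Aadacl2 family. Its levels were 1.20, 0.992, 0.838, 0.315 and 1.19 CPM in Grhl3 KO libraries 1026, 1027, 1035, 1036 and 1043, from 19, 31, 29, 8 and 20 counts. In wild-type libraries 1028, 1048, 1528, 1555 and 1561 they were 8.77, 3.58, 9.23, 11.5 and 4.85 CPM, from 186, 68, 175, 214 and 103 counts. The highest Grhl3 KO library thus stood well under the lowest wild-type library, 1048. The means were 0.907 ± 0.363 CPM in Grhl3 KO mice against 7.59 ± 3.29 CPM in wild type (SD, n = 5 each), and the log2 fold change was −3.08 (SE 0.42, 95% limits −4.00 to −2.16). Without wild-type libraries 1528 and 1555 it was −2.67, and with only the first number series (5 Grhl3 KO libraries and wild-type 1028 and 1048) it was −2.78, and the gene was past the adjusted threshold in neither. Nor was it past it with any 1 of these left out: 1027, 1035, 1036 and 1043 of Grhl3 KO and 1028, 1528 and 1555 of wild type.

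Gm9696 (ENSMUSG00000070465, chromosome 3, 59952309 to 59973594, plus strand), with a midpoint 31.4 kb from that of C130079G13Rik, had the same separation at lower counts. Its Grhl3 KO libraries held 8, 7, 15, 9 and 6 counts, or 0.503, 0.224, 0.433, 0.355 and 0.358 CPM in the order of sample numbers. Its wild-type libraries held 41, 20, 29, 38 and 34 counts, or 1.93, 1.05, 1.53, 2.05 and 1.60 CPM. The log2 fold change was −2.13 (SE 0.31, 95% limits −2.80 to −1.45). It was −2.03 without wild-type libraries 1528 and 1555 and −2.0 in the first number series, again not past the adjusted threshold, nor was it when any single library other than Grhl3 KO 1026 or wild-type 1048 was left out. The ratio of Gm9696 to C130079G13Rik counts ran from 0.226 to 1.13 in Grhl3 KO and from 0.166 to 0.330 in wild type, with the highest ratio in library 1036, where C130079G13Rik had 8 counts. The ratios of the groups overlapped.

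The next genes of the cluster, Aadacl2 and Aadac, were also lower in Grhl3 KO on average, by less, and their groups overlapped. Aadacl2 (ENSMUSG00000091376, chromosome 3, 60006743 to 60025420) stood at 9.31, 7.62, 5.14, 8.90 and 15.5 CPM in Grhl3 KO and at 23.5, 10.95, 18.6, 24.9 and 10.3 CPM in wild type. Of the 5 Grhl3 KO libraries 4 lay under the lowest wild-type library, and 1043 did not. For Aadacl2 the log2 fold change was −0.93 (SE 0.33, 95% limits −1.66 to −0.21). Aadac (ENSMUSG00000027761, 60025717 to 60040160), the drug-metabolising esterase, stood at 1.70, 0.736, 0.867, 0.630 and 1.61 CPM in Grhl3 KO and at 3.21, 1.53, 2.11, 3.34 and 1.51 CPM in wild type. Libraries 1026 and 1043 were the Grhl3 KO libraries above the lowest wild-type value, and the log2 fold change was −1.10 (SE 0.38, 95% limits −1.93 to −0.27).

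Within a library, C130079G13Rik was also lower relative to Aadacl2. The ratio of their counts was 0.128, 0.130, 0.163, 0.0354 and 0.0772 in Grhl3 KO, against 0.373, 0.327, 0.496, 0.463 and 0.472 in wild type. This ratio does not depend on the scaling of libraries, and its groups did not overlap. For Aadac relative to Aadacl2 the ratio was 0.0708 to 0.182 in Grhl3 KO and 0.113 to 0.147 in wild type, with the wild-type values inside the Grhl3 KO range. Both ratios were chosen after the values were seen. C130079G13Rik was itself selected on its lower counts in Grhl3 KO, so the separation of its ratio tests nothing.

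**Figure D2:**
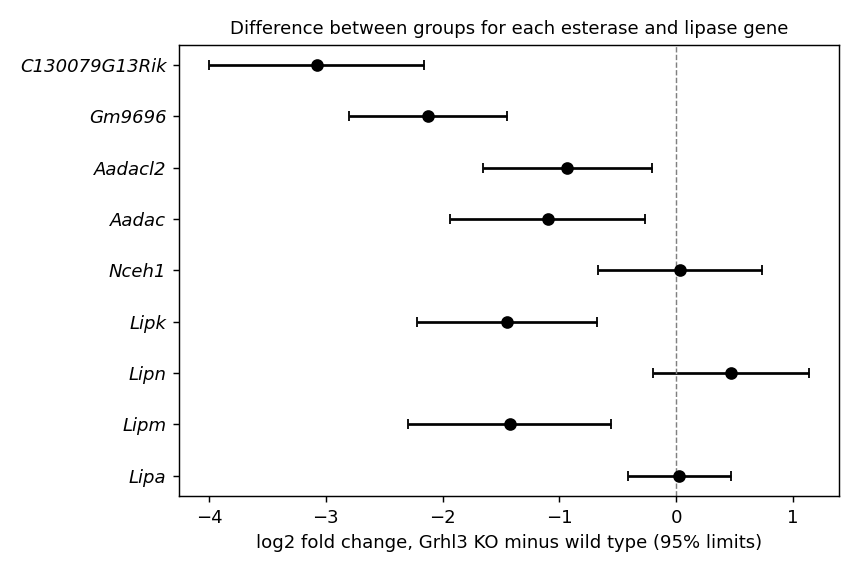
Log2 fold change of each gene, Grhl3 KO minus wild type, with 95% limits from edgeR's fit over all genes. The limits lie below 0 for C130079G13Rik, Gm9696, Aadacl2, Aadac, Lipk and Lipm and span 0 for Nceh1, Lipn and Lipa.

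Lipk and Lipm, the epidermal acid lipases, were lower in Grhl3 KO on average, with overlap between groups. Lipk (ENSMUSG00000024771, chromosome 19, 34008290 to 34047835, plus strand) stood at 5.22, 3.42, 2.75, 5.51 and 4.60 CPM in Grhl3 KO. In wild type it stood at 12.3, 8.48, 15.8, 17.4 and 4.52 CPM, and library 1561 alone reached down into the Grhl3 KO range. The log2 fold change was −1.45 (SE 0.35, 95% limits −2.22 to −0.68), and −1.65 without library 1561. Without libraries 1528 and 1555, the lowest in Y-linked genes, it was −0.97.

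Lipm (ENSMUSG00000056078, chromosome 19, 34100933 to 34122687, plus strand) varied widely among wild-type libraries. It stood at 21.6, 15.9, 14.0, 9.49 and 22.9 CPM in Grhl3 KO, against 81.0, 25.6, 44.2, 56.1 and 17.3 CPM in wild type. Wild-type library 1561 again lay within the Grhl3 KO range, while 1028 was highest. The means were 16.8 ± 5.51 CPM in Grhl3 KO mice against 44.9 ± 25.3 CPM in wild type (SD, n = 5 each), a log2 fold change of −1.42 (SE 0.39, 95% limits −2.29 to −0.56). It was −1.10 without library 1028. Of its exonic bases 1219 lie opposite Ankrd22 on the other strand, a gene at 32.4 ± 4.47 CPM in Grhl3 KO mice against 38.1 ± 9.21 CPM in wild type. The library kit is stranded per the labels, and the table is named as reverse-stranded counts.

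Lipn, between them on the chromosome (ENSMUSG00000024770, 34067358 to 34084918, plus strand), had a mean that was not lower in Grhl3 KO. It stood at 10.4, 9.06, 7.63, 7.09 and 12.5 CPM in Grhl3 KO and at 5.99, 7.85, 3.90, 11.7 and 4.28 CPM in wild type. Grhl3 KO library 1043 lay above the wild-type range and the other 4 within it. The log2 fold change was 0.47 (SE 0.30, 95% limits −0.20 to 1.13), and 0.75 without wild-type library 1555. The midpoints of Lipk and Lipm, on either side of it, are 83.7 kb apart.

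Ratios within a library separated the groups where the single lipase levels did not. The ratio of Lipk to Lipn counts was 0.360 to 0.778 in Grhl3 KO and 1.05 to 4.04 in wild type. The ratio of Lipm to Lipn counts was 1.34 to 2.07 in Grhl3 KO and 3.27 to 13.5 in wild type. Library 1561, low for both Lipk and Lipm, was low for Lipn as well, and its ratios lay above those of every Grhl3 KO library. These ratios were formed after the values were seen and are untested.

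Lipa (ENSMUSG00000024781, chromosome 19, 34492318 to 34527474, minus strand), encoding the lysosomal enzyme, stood at 19.6, 12.2, 16.4, 18.4 and 15.2 CPM in Grhl3 KO and at 15.8, 19.9, 9.28, 16.7 and 18.6 CPM in wild type. The groups covered nearly the same range, with library 1528 lowest. The log2 fold change was 0.03 (SE 0.20, 95% limits −0.42 to 0.47), and its sign changed in 6 of 21 alternative analyses.

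Nceh1 (ENSMUSG00000027698, chromosome 3, 27182965 to 27284608, plus strand), on the same chromosome as the AADAC-like cluster but far from it, had an even level in Grhl3 KO and an uneven one in wild type. It stood at 65.3, 74.6, 58.8, 66.8 and 82.9 CPM in Grhl3 KO, with a coefficient of variation of 13.3%. In wild type it stood at 29.4, 39.2, 75.9, 74.4 and 122 CPM, with a coefficient of variation of 53.5%. The log2 fold change was 0.03 (SE 0.32, 95% limits −0.67 to 0.74). Wild-type libraries 1028 and 1048, those of the first number series, were the lowest, and against them alone the log2 fold change was 1.02; it was −0.17 without library 1028. Over the 10 libraries with group means taken out, Nceh1 ran against the squamous epithelium markers (r = −0.80, Spearman's rho −0.52). It also ran against the smooth muscle markers (r = −0.76, rho −0.78). With macrophage and with fibroblast markers r was −0.57 (rho −0.39 and −0.65). The part of these cell types in the levels was not tested.

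Per kb of exonic sequence, the 9 genes ranked by their mean level over the 10 libraries from Nceh1 at 13.1 CPM per kb through Lipm at 8.83, Aadacl2 at 8.47, Lipn at 4.27, Lipk at 3.64, Lipa at 2.39, C130079G13Rik at 1.52 and Aadac at 1.15 to Gm9696 at 0.329 CPM per kb. The ranges of every pair of neighbours in this order overlapped over libraries. Lipa has 6780 exonic bases over all its transcripts but 2969 in its longest coding transcript, and per kb of that transcript its level was 5.46 CPM, above the 5.36 of Lipn. The order of the means also differed between the groups, which was not tested. In Grhl3 KO alone Lipm stood at 4.81 ± 1.58 CPM per kb, under Aadacl2 at 5.84 ± 2.40 and Lipn at 4.96 ± 1.17, and Lipk at 1.96 ± 0.538 stood under Lipa at 2.41 ± 0.427 (SD, n = 5). In wild type Lipm led Aadacl2, at 12.9 ± 7.25 against 11.1 ± 4.30 CPM per kb, and Lipk at 5.32 ± 2.40 stood above Lipn at 3.58 ± 1.70 (SD, n = 5). In Grhl3 KO alone C130079G13Rik stood at 0.325 ± 0.130 CPM per kb, under Aadac at 0.739 ± 0.338, while in wild type it stood at 2.72 ± 1.18, above Aadac at 1.56 ± 0.592 (SD, n = 5 each).

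After the group means were taken out, the levels of several of the lower genes varied together over the 10 libraries. Pearson's r of log2 CPM was 0.87 between Lipm and Aadac (Spearman's rho 0.85), 0.82 between Lipm and C130079G13Rik, and 0.81 between Aadac and C130079G13Rik. It was 0.78 between Lipk and Aadacl2 and 0.77 between Lipm and Aadacl2. Genes on chromosomes 3 and 19 were thus paired about as closely as genes of one cluster. Within clusters, Aadac and Aadacl2 reached 0.77, Lipk and Lipm 0.64, and C130079G13Rik and Gm9696 0.48. Among the lower genes, Gm9696 ran from 0.33 with Lipk to 0.67 with Aadac, and Lipk reached 0.41 with C130079G13Rik. Lipn, which was not lower, reached 0.58 with Aadac and 0.48 with Aadacl2. Nceh1 and Lipa stood apart, with r from −0.44 to 0.07 for Nceh1 and from −0.45 to 0.34 for Lipa. The libraries share depth and tissue make-up across genes, so these values describe them and carry no p.

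**Figure D3:**
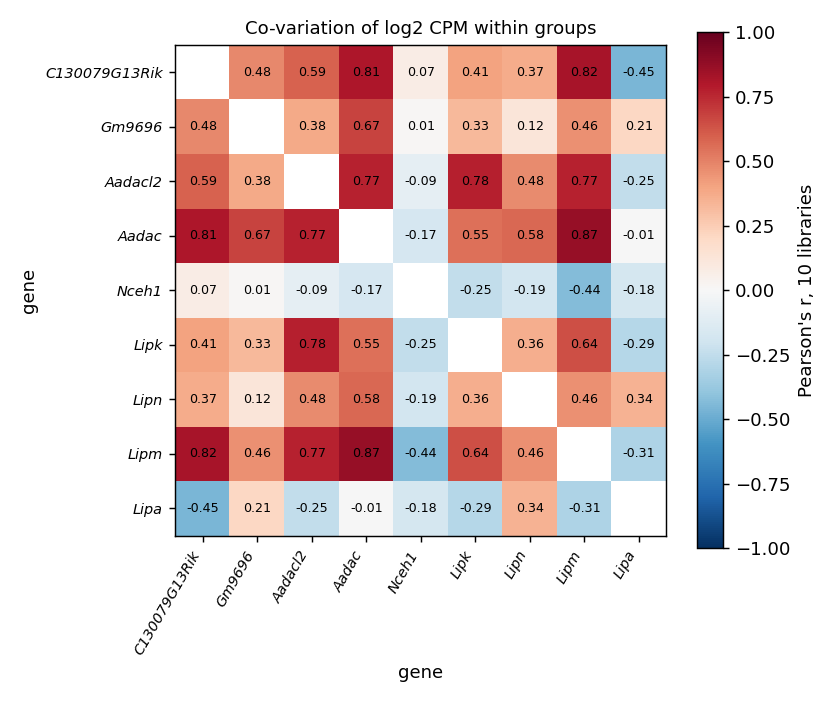
Pearson's r of log2 CPM between each pair of genes over 10 libraries with the group means taken out, from −1 (blue) to 1 (red). Among Lipm, Aadac, Aadacl2 and C130079G13Rik the values run from 0.59 to 0.87. Other pairs reach 0.78 (Lipk and Aadacl2), 0.67 (Gm9696 and Aadac) and 0.64 (Lipk and Lipm). Nceh1 and Lipa have low or negative values.

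The lower genes varied with several marker lists to different degrees. With the group means taken out, r with squamous epithelium markers was 0.69 for Lipm and 0.67 for Lipk (Spearman's rho 0.49 and 0.47). With smooth muscle markers r was 0.58 for Lipm and 0.55 for Aadac (rho 0.52 and 0.44). For both lists r was lower in the other lower genes. Sebaceous gland markers reached 0.52 with C130079G13Rik. For Y-linked genes r was −0.60 with Lipk, −0.50 with C130079G13Rik, −0.38 with Aadacl2, −0.28 with Gm9696 and −0.25 with Lipm and Aadac. Keratinised squamous cells and skeletal muscle are given for each lower gene. Over 10 libraries with the group means taken out, the mean log2 CPM of keratinised cell markers correlated at r = 0.78 with Lipm, 0.77 with Aadacl2, 0.62 with Lipk and C130079G13Rik, 0.52 with Aadac and 0.31 with Gm9696, and at −0.59 with Lipa. For skeletal muscle markers r was 0.82 with Aadac, 0.68 with C130079G13Rik, 0.54 with Lipm, 0.53 with Gm9696, 0.47 with Aadacl2 and 0.13 with Lipk. The 11 keratinised cell markers measured summed to 4284 to 7330 CPM in Grhl3 KO mice against 2615 to 9542 CPM in wild type. Krtdap and Krt10 were most abundant, and the sums of the groups overlapped (exact two-sided permutation p = 0.913). Of the 10 tested, 4 were higher and 6 lower in the fit, and edgeR called 1: Krt1, a keratin of the layers above the basal one, rose to 200.3 ± 97.7 CPM in Grhl3 KO mice against 24.2 ± 11.2 CPM in wild type (SD, n = 5 each; log2 fold change 3.05, edgeR adjusted p = 0.0358). No gene was called higher in limma voom, in the first number series, with the series as a covariate, without wild-type libraries 1528 and 1555, or without any 1 of Grhl3 KO 1027, 1036 and 1043 and wild-type 1528 and 1555, so the Krt1 call was lost in each. The envelope protein gene Lor stood at 309.8 ± 173 CPM in Grhl3 KO mice against 717 ± 557 CPM in wild type (−1.21, edgeR adjusted p = 0.697). With the keratinised cell marker level in the fit, the log2 fold change of the 9 genes had a median of −1.12, and that of C130079G13Rik was −3.12. Skeletal muscle markers were higher in the fit for Grhl3 KO in 14 of 14 tested genes, which share libraries and tissue and are not separate observations. They summed to 796 to 5782 CPM in Grhl3 KO mice against 1318 to 2882 CPM in wild type (exact two-sided permutation p = 0.397). Grhl3 KO libraries 1043, 1026 and 1035 held 5782, 3555 and 2348 CPM. Libraries 1027 and 1036 held 946 and 796 CPM, under every wild-type library. With the muscle markers in the fit, C130079G13Rik was at −3.27 and Aadac at −1.36.

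Markers of other cell types in which such enzymes are known had sums that overlapped between groups. The macrophage markers, among them Lyz2 and Cd68, summed to 173 to 253 CPM in Grhl3 KO mice against 171 to 233 CPM in wild type. The 10 measured glandular stomach markers summed to 0.347 to 2.85 CPM in Grhl3 KO mice against 0.579 to 3.53 CPM in wild type, with Pgc, Gif and Muc6 at 0 counts. The 8 hepatocyte and enterocyte markers summed to 0.544 to 1.39 CPM in Grhl3 KO mice against 0.579 to 16.9 CPM in wild type, with Serpina1a at 0 counts. Adipocyte markers summed to 23.0 to 181 CPM in Grhl3 KO mice against 16.4 to 265 CPM in wild type, nearly all from Fabp4, and sebaceous gland markers summed to 5.09 to 11.3 CPM in Grhl3 KO mice against 3.37 to 7.03 CPM in wild type.

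The genes most alike to each member, by Pearson's r over the 10 libraries with the group means taken out, were taken from 13092 genes with a mean of at least 1 CPM. C130079G13Rik was closest to P2rx5, Adamtsl3 and Lgals4 (r from 0.91 to 0.94), and Gm9696 to Tnnt1, Gm10320 and Fsd1l (0.88 to 0.95). Aadacl2 was closest to Aes, Gsta2 and Pomp (0.96 to 0.98), and Aadac to Osbpl1a, Fsd2 and Rcsd1 (0.95 to 0.97). Lipm was closest to Dlg2, Etnk2 and Plxdc2 (0.97 to 0.99), Lipk to C330018D20Rik, Endod1 and Glb1l2 (0.94 to 0.97), and Lipn to Dctn2, Trak1 and Cspp1 (0.92 to 0.93). Nceh1 was closest to Jmjd6, Atp5j and Htatip2 (0.95 to 0.96) and Lipa to Tmem39b, Oat and Uhrf2 (0.90 to 0.93). Among so many genes, high values over 10 libraries are common.

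The genes around both clusters were set beside the members. Of 45 genes with a midpoint within 1 Mb of a member, 29 were tested, 16 with a higher and 13 with a lower fitted level, and 0 were called by edgeR. At an unadjusted p under 0.05 were 2 of them, and DESeq2 called 1 and limma voom 0. Slc16a12, encoding a creatine transporter near Lipa, was at 0.836 ± 0.173 CPM in Grhl3 KO mice against 0.363 ± 0.235 CPM in wild type (1.17, SE 0.46, edgeR adjusted p = 0.644), and the log2 fold change was 0.78 without wild-type libraries 1528 and 1555.

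Around the chromosome 3 cluster 10 genes were tested, with a median log2 fold change of 0.00, against −0.00 over all genes. Of the nearer AADAC-like relatives, Gm8298 and 4930449A18Rik had 0 counts in every library, Gm5538 had 1 count in Grhl3 KO library 1043, and Gm5709 had up to 3 counts in a library. A count of 0 allows up to 0.0867 to 0.189 CPM, depending on the library, for counting error only. On chromosome 19, Lipf, which encodes gastric lipase and lies next to Lipk, had 0 counts, and the 15 tested neighbours had a median of 0.12.

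**Figure D4:**
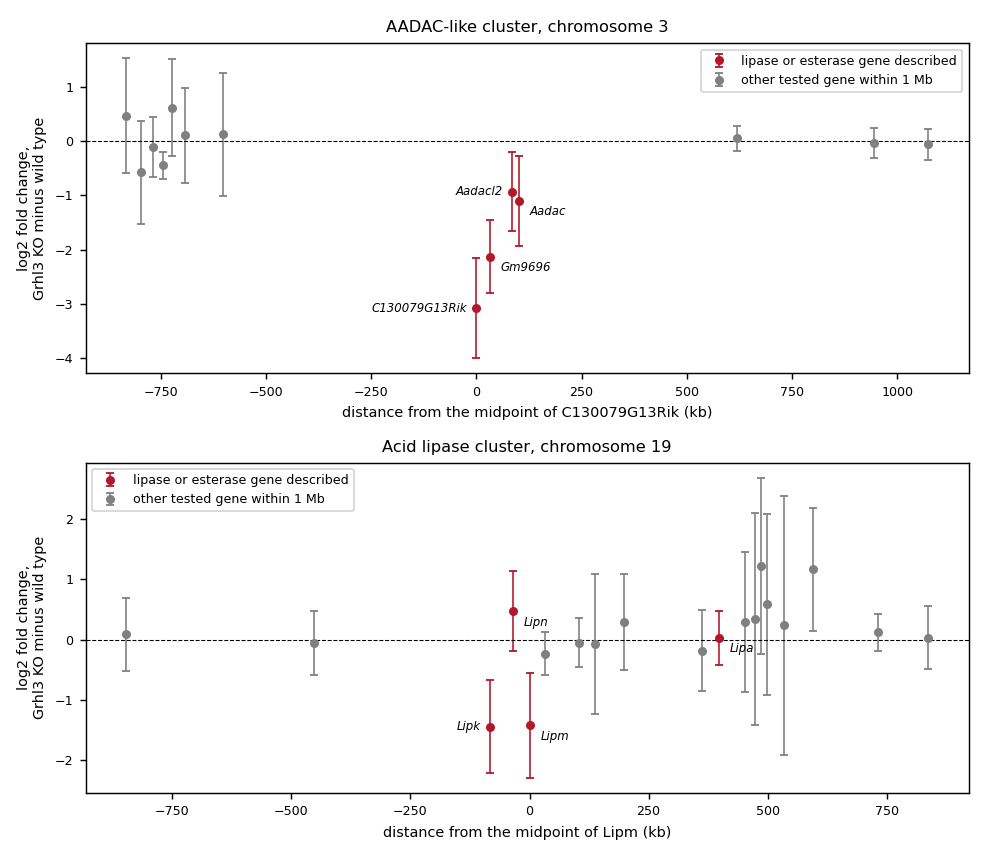
Log2 fold change, Grhl3 KO minus wild type, with 95% limits, against the distance in kb from the midpoint of C130079G13Rik (top) and Lipm (bottom). Lipase and esterase genes described are red and other tested genes within 1 Mb are grey; the 4 AADAC-like genes lie below 0, and Lipk and Lipm lie below 0 on either side of Lipn.

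Other genes of lipid ester breakdown were taken from lists written with earlier results of these data known. No list member was called by edgeR or by limma voom. Among 32 tested genes of lysosomal lipid handling, 11 were higher and 21 lower, with a median log2 fold change of −0.07; 3 had an unadjusted p under 0.05, and DESeq2 called 2. Among these was Smpd1, encoding acid sphingomyelinase, at 26.6 ± 3.76 CPM in Grhl3 KO mice against 73.9 ± 26.2 CPM in wild type (−1.48, SE 0.25, edgeR adjusted p = 0.0834). Each Grhl3 KO library lay under each wild-type library. The lysosomal phospholipase gene Pla2g15 was at −0.38 and the sterol exporter gene Abcg1 at −0.61 (edgeR adjusted p = 0.692 and 0.729). In the first number series Smpd1 was at −0.91 and Pla2g15 at −0.16.

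Cornification genes, which act in the cells where the epidermal lipases are known, had 10 higher and 9 lower among 19 tested and a median of 0.00. This list too was written with earlier results of these data known, so nothing is read from its share of small p. At an unadjusted p under 0.05 were 7 of them (36.8%), against 7.16% of all genes, and DESeq2 called 1. That gene, Sdr9c7, encoding a dehydrogenase of barrier acylceramides, was at 29.0 ± 14.7 CPM in Grhl3 KO mice against 89.8 ± 36.4 CPM in wild type (−1.63, SE 0.37, edgeR adjusted p = 0.243). Ivl, encoding involucrin, was at −1.90, the fatty acid elongase gene Elovl4 at −0.74 and the protease gene Klk7 at 1.36 (edgeR adjusted p = 0.504, 0.575 and 0.621). In the first number series Ivl was at −0.55.

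Among neutral lipases, lipid droplet and esterification genes, 10 of 23 tested were higher and 13 lower, with a median of −0.01 and 2 at an unadjusted p under 0.05; DESeq2 called 0. The 4 of smallest p were Cidea, a lipid droplet protein gene, at 0.88, the monoglyceride hydrolase gene Abhd6 at −0.35, the triglyceride synthesis gene Dgat1 at 0.34 and the endothelial lipase gene Lipg at 0.49 (edgeR adjusted p from 0.682 to 0.724). Among carboxylesterases and other serine esterases, 15 of 21 tested were higher and 6 lower, with a median of 0.17 and 2 at an unadjusted p under 0.05; DESeq2 called 0. The thioesterase gene Lypla2 was at 76.7 ± 2.95 CPM in Grhl3 KO mice against 64.2 ± 6.58 CPM in wild type (0.26, SE 0.08, edgeR adjusted p = 0.483), beside Lypla1 at 0.20, the carboxylesterase gene Ces2c at 1.04 and the Wnt deacylase gene Notum at −2.56 (edgeR adjusted p from 0.599 to 0.744). In the first number series Lypla1 was at 0.09. The value of Notum rests on wild-type library 1528 at 36.1 CPM: the medians were 0.818 CPM in Grhl3 KO mice against 0.647 CPM in wild type, and without that library the log2 fold change turned to 1.09. Of other gastric and acid lipase genes 1 of 4 was tested, named Lipo1 in the table and Lipo3 in GENCODE M21, at −0.06 (edgeR adjusted p = 0.983). Of other arylacetamide deacetylase-like genes 0 of 9 passed the filter.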

How the data were processed

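The deposited counts are whole numbers per gene, not normalized, for 10 libraries; columns were joined to samples by the sample number in the titles, 0 columns of per-sample values were left unused and 0 entries name no gene. Per the submitters' processing notes, the authors counted reads with featureCounts on GRCm38; aligner, annotation release and versions: not given in the sources used here. Kit and carcinogen are per the labels' protocols. Of 22740 identifiers 21842 were found in GENCODE M21 (GRCm38), which gave positions and exonic lengths.

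Genes were filtered with filterByExpr (minimum count 10, minimum total 15) in edgeR 4.0.16 (R 4.3.3), which left 13731. Counts were scaled by TMM factors and tested with the quasi-likelihood F-test with robust dispersions, over all 10 libraries; p-values were adjusted by Benjamini-Hochberg over those genes (threshold 0.05). SEs follow from the F statistic and 95% limits from the moderated degrees of freedom. Log2 CPM carry a prior count of 2. Marker sums were compared by exact permutation tests, whose smallest possible p is 0.00794. Alternatives were 2 other scalings, DESeq2 1.42.0, limma voom (limma 3.58.1), 2 other filters, the number series, marker covariates and left-out libraries. Transcript similarity used blastn 2.17.0. The labels name separate mice only through sample numbers, so p-values measure the spread between these samples.

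The genes and lists were chosen with earlier results of these data known. Named are all 9 genes, the 4 genes of smallest p per list, neighbours with an unadjusted p under 0.05 and the 3 genes most alike to each of the 9. Some genes that this rule names are not reported here. The length of the longest coding transcript was used as an alternative for levels after seeing the data.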

Additional observations from a re-analysis of the deposited data

Results flagged for a closer look

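Among 58 sets of 5 libraries, 4 held a library far from the others, and chance marks about 1 in 20 such sets. Notum stood at 36.1 CPM in wild-type library 1528, against at most 1.18 CPM in the other wild-type libraries, and at 3.20 CPM in Grhl3 KO library 1027, against at most 1.06 CPM in the other Grhl3 KO libraries. Lipo1 stood at 7.65 CPM in wild-type library 1528, against at most 4.71 CPM in the others. Lypla2 stood at 71.6 CPM in Grhl3 KO library 1035, against at least 77.0 CPM in the others. None of the 9 lipase and esterase genes was among them.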

How the results depend on the processing

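The median log2 fold change of the 9 genes kept its sign in all 21 alternatives, from −0.95 to −1.30 with 1 library left out. The number of the 9 past the adjusted threshold was 2 in edgeR but 4 in DESeq2 (with Lipk and Lipm), 1 with no filter, and 0 in limma voom, in the first number series, with the number series as a covariate and without wild-type libraries 1528 and 1555. With 1 library left out it ran from 0 to 2: C130079G13Rik passed in 3 of 10 cases and Gm9696 in 2, while their log2 fold changes ran from −3.26 to −2.86 and from −2.25 to −1.98. Over all genes the calls (higher and lower) numbered 11 (4 and 7), 118 (57 and 61) in DESeq2, 7 (3 and 4) with no filter, 61 (19 and 42) with the keratinised cell covariate, and 1 (0 and 1) in limma voom, in the first number series, with the number series as a covariate and without wild-type libraries 1528 and 1555; with 1 library left out they ran from 1 to 16 (0 to 11 and 1 to 9). The cause was not tested. Genes called near the clusters numbered 1 in DESeq2. Lysosomal list calls numbered 2 in DESeq2 and with the keratinised cell covariate, and from 0 to 1 with 1 library left out (Smpd1 passed without wild-type library 1048, at −1.66). Cornification list calls numbered 1 in DESeq2 and 3 with the keratinised cell covariate. Notum turned to 2.10 in the first number series, 2.11 with the series as a covariate, 1.12 without wild-type libraries 1528 and 1555 and 1.09 without 1528, in a range from −3.28 to 1.09 with 1 library left out. Lipo1 turned to 0.15, 0.15, 0.12 and 0.14 there, and to 0.06 without Grhl3 KO library 1043, in a range from −0.17 to 0.14 with 1 library left out. No paired analysis was possible because the groups share no sample numbers. Counts of 6 to 31 per Grhl3 KO library limit the precision for the chromosome 3 pair.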
